A study of Rattus norvegicus with 9 samples.

Results

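The genes described here are 8 regulators and effectors of fat cell formation and lipid storage: the transcription factors Cebpb, Cebpa and Pparg, the lipid handling genes Fabp4, Lpl, Cd36 and Plin2, and the hormone gene Adipoq. They were chosen by name, as the array features whose only annotated gene symbol is one of the 8, a rule that uses no measured value. All 8 were measured, by 9 of the 29214 features of the array (Cd36 has 2 features), and they are 8 of the 14506 genes tested. Of the 8, Cebpa, Cebpb and Plin2 had a mean level at or above that of the median gene, and no gene was left out for a low level.

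All cells were primary cultures from adult rats of the Sprague Dawley strain, and RNA levels were read on 9 whole-transcript arrays (Affymetrix Rat Gene 1.0 ST), 3 independent samples in each of 3 groups. SKP-derived Schwann cells were made by plating spheres of skin-derived precursors (SKPs), taken from dorsal trunk skin, in Schwann cell growth medium. Nerve Schwann cells were isolated from the sciatic nerve and grown in the same kind of medium, and SKPs were collected as floating spheres in proliferation medium. Per the labels' protocols, both kinds of Schwann cell were passaged and grown to confluence before collection. None of the 3 groups was given an adipogenic treatment in the labels. The labels give dermis as the tissue of every array, nerve cells included, so groups follow the named cell type. No sort is named, so a group can hold more than 1 cell type, and whether a SKP-derived culture came from the animal of a SKP array is not given in the labels. The labels describe the SKP arrays as a reanalysis of samples deposited earlier, so any batch cannot be told apart from the group.

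Adipogenesis is a relay of transcription factors. In cultured mouse preadipocytes, C/EBP-beta (Cebpb) and C/EBP-delta are induced first and turn on C/EBP-alpha (Cebpa) and PPAR-gamma (Pparg), which then keep each other active and switch on the genes of lipid uptake and storage. Lipoprotein lipase (Lpl) frees fatty acids from circulating triglyceride, CD36 takes them up, FABP4 carries them in the cytosol, perilipin 2 (Plin2) coats the droplets in which they are stored, and adiponectin (Adipoq) is secreted by mature fat cells. Several of these genes also work elsewhere: macrophages use PPAR-gamma, FABP4, LPL and CD36, many cell types carry perilipin 2 on droplets, and Schwann cells handle large amounts of lipid to build myelin. Rodent SKPs are known to form fat cells in suitable medium.

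The proximal promoters of the 3 genes that were lower in both Schwann cell groups (Cebpa, Cebpb and Plin2), and of Pparg, the classic C/EBP target among them, are shown as the 250 bases before the annotated start, on the strand of the gene, 5′ to 3′, from RefSeq (assembly GRCr8). Capitals mark a match to 1 of 4 motifs searched on both strands: a PPAR and RXR element (AGGTCANAGGTCA), a C/EBP element (TTGCNNAA), a TATA box (TATAAA) and an E-box (CACGTG). The motifs were picked with the sequences in view, and no match overlapped another.
Cebpa, chr1:96896334-96896583, plus strand, TATA box beginning at -35: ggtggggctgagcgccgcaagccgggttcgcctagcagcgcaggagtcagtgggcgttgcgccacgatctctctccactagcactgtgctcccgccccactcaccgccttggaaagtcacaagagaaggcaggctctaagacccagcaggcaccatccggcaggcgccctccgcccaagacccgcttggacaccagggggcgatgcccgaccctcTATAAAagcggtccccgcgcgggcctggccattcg
Cebpb, chr3:176816755-176817004, plus strand, TATA box beginning at -33: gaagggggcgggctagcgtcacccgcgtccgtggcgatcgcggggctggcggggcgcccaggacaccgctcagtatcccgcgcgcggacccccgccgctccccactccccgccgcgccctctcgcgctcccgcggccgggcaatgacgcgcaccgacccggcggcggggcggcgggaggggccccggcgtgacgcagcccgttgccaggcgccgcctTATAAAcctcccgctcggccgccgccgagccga
Plin2, chr5:106229019-106229268, minus strand, E-box beginning at -67: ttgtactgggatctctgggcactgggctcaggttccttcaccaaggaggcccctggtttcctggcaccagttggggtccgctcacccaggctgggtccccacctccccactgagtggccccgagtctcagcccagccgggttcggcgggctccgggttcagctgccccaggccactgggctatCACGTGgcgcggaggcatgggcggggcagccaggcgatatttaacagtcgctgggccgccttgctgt
Pparg, the more downstream of its starts, chr4:150154522-150154771, plus strand, C/EBP element beginning at -174: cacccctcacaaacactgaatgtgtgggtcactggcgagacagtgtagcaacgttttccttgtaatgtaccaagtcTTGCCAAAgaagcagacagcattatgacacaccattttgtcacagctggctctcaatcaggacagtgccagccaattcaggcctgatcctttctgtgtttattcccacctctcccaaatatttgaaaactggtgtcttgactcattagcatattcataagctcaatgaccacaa

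The RefSeq table held 8 entries for 6 of the 8 genes, and Fabp4 and Lpl had none. Pparg and Plin2 each had another entry, not shown above, with 0 matches. Over the 8 entries, the TATA box was found in 3, the C/EBP element in 1, the E-box in 1 and the PPAR and RXR element in 0. Among all 33469 promoter entries of the same length the shares were 12.9%, 9.22%, 5.59% and 0.0508%. These counts take a match at any place and on either strand. Besides those of Cebpa and Cebpb, the TATA box match was in Cd36, on the opposite strand and beginning at -175. A match is a run of letters and not a measured binding site, and no binding or chromatin data are part of the arrays.

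Values are log2 levels as deposited by the authors (RMA, which corrects background, normalises between arrays and sums up the probes of a feature). Array medians over the whole table ran between 6.33 and 6.44 in SKP-derived Schwann cells, 6.82 and 6.87 in nerve Schwann cells, and 6.20 and 6.27 in SKPs. The median difference over all 14506 genes was therefore 0.46 for nerve Schwann cells minus SKPs and -0.45 for SKP-derived minus nerve Schwann cells, against -0.01 for SKP-derived Schwann cells minus SKPs. After a further cyclic loess normalization between arrays it was -0.03, -0.02 and -0.03 in the same order. Since the deposited nerve levels lie higher as a whole, differences after cyclic loess are given beside the deposited ones for the 8 genes in nerve Schwann cells, and list counts after cyclic loess where they differ for nerve Schwann cells. Sox10, Erbb3, S100b and Cdh19, which mark Schwann cells, averaged 10.42 to 11.42 in the 6 Schwann cell arrays and 5.11 to 5.54 in the 3 SKP arrays, and each was higher in both Schwann cell groups.

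Cebpa, Cebpb and Plin2 were lower in SKP-derived and in nerve Schwann cells than in SKPs, with no overlap of the groups, as deposited and after cyclic loess. Cd36 and Lpl were high in SKP arrays 1 and 2 and not in SKP array 3. As deposited, Pparg and Fabp4 were high in SKP array 1 alone. After cyclic loess, Pparg (5.25 and 5.53) and Fabp4 (4.94 and 4.99) in SKP arrays 2 and 3 were also above every Schwann cell array. The highest Schwann cell levels were then 5.19 for Pparg and 4.81 for Fabp4. Adipoq lay between 4.76 and 5.56 in all 9 arrays as deposited. The plot of levels by array shows these patterns side by side.

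**Figure D1:**
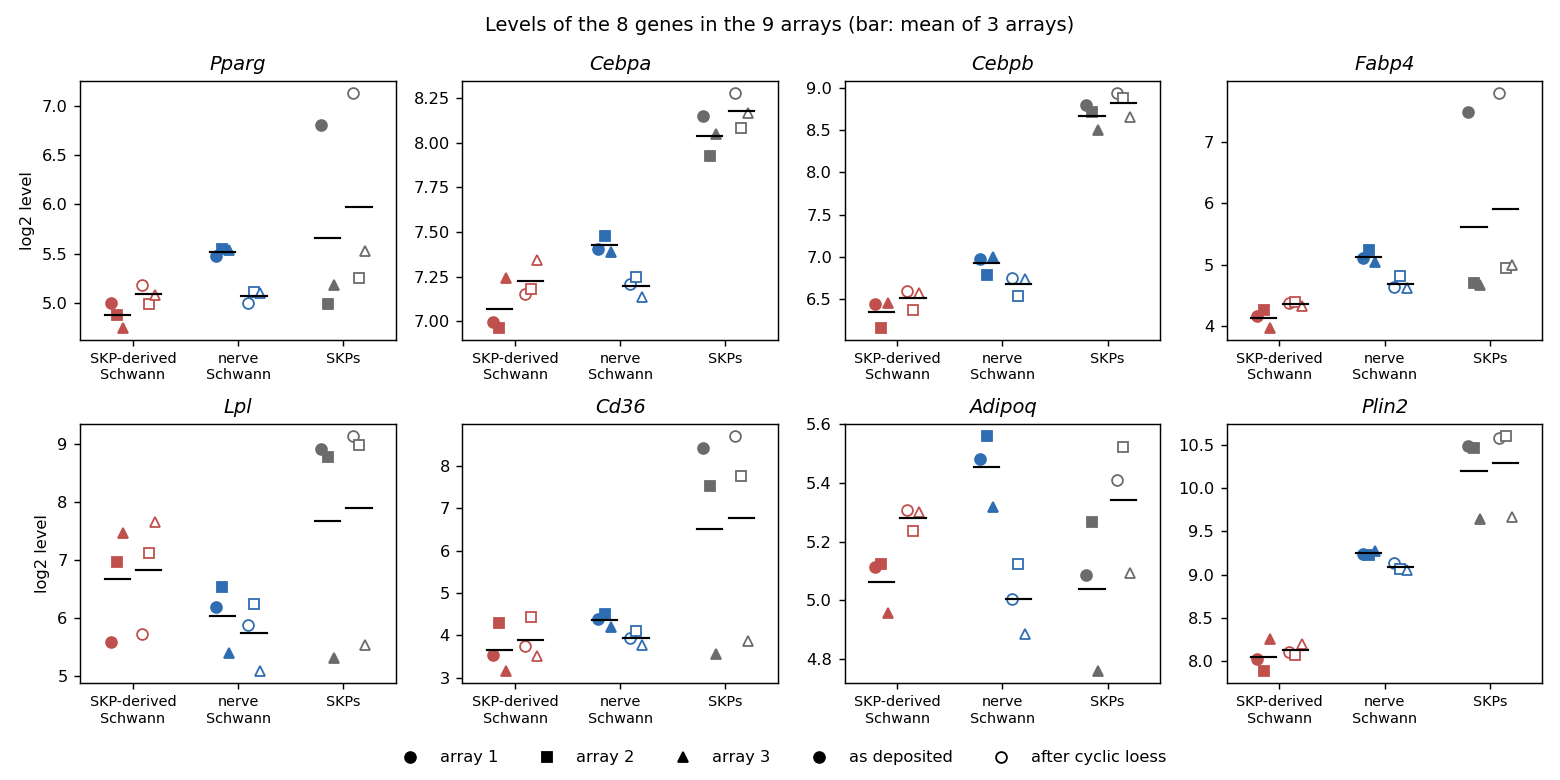
Log2 level (vertical axis, its range set for each gene) of the 8 genes in each array of SKP-derived Schwann cells, nerve Schwann cells and SKPs; symbols mark arrays 1 to 3, filled as deposited and open after cyclic loess, and bars are means of 3 arrays. Cebpb, Cebpa and Plin2 are highest in all 3 SKP arrays, while Fabp4 reaches 7.49 in SKP array 1 and 4.70 and 4.68 in SKP arrays 2 and 3.

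In SKP-derived Schwann cells against SKPs, 4 of the 8 genes were called (limma, Benjamini-Hochberg adjusted p under 0.05), 0 higher and 4 lower, beside 41.6% of all genes called (19.3% higher, 22.3% lower). In nerve Schwann cells against SKPs, 4 were called, 1 higher and 3 lower, beside 64.6% of all genes (49.7% higher, 14.9% lower). After cyclic loess it was 0 higher and 4 lower in both comparisons, beside 42.5% of all genes called for SKP-derived (18.6% higher, 23.9% lower) and 48.0% for nerve Schwann cells (22.4% higher, 25.6% lower). The groups did not overlap for 4 of the 8 genes in either comparison, beside 47.9% of all genes for SKP-derived and 73.5% for nerve Schwann cells. After cyclic loess it was 5 of the 8 in either comparison, beside 49.6% for SKP-derived and 63.0% for nerve Schwann cells. The share of the 8 genes called is thus close to or below the background, and the calls on the lower side come from 3 or 4 genes. In either comparison 7 of the 8 differences were below 0 as deposited, and 8 after cyclic loess. The median gene differed by -0.01 for SKP-derived and 0.46 for nerve Schwann cells as deposited, and by -0.03 in both after cyclic loess. The median difference of the 8 was -1.24 for SKP-derived and -0.78 for nerve Schwann cells (-1.30 and -1.21 after cyclic loess). Both comparisons use the same 3 SKP arrays.

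**Figure D2:**
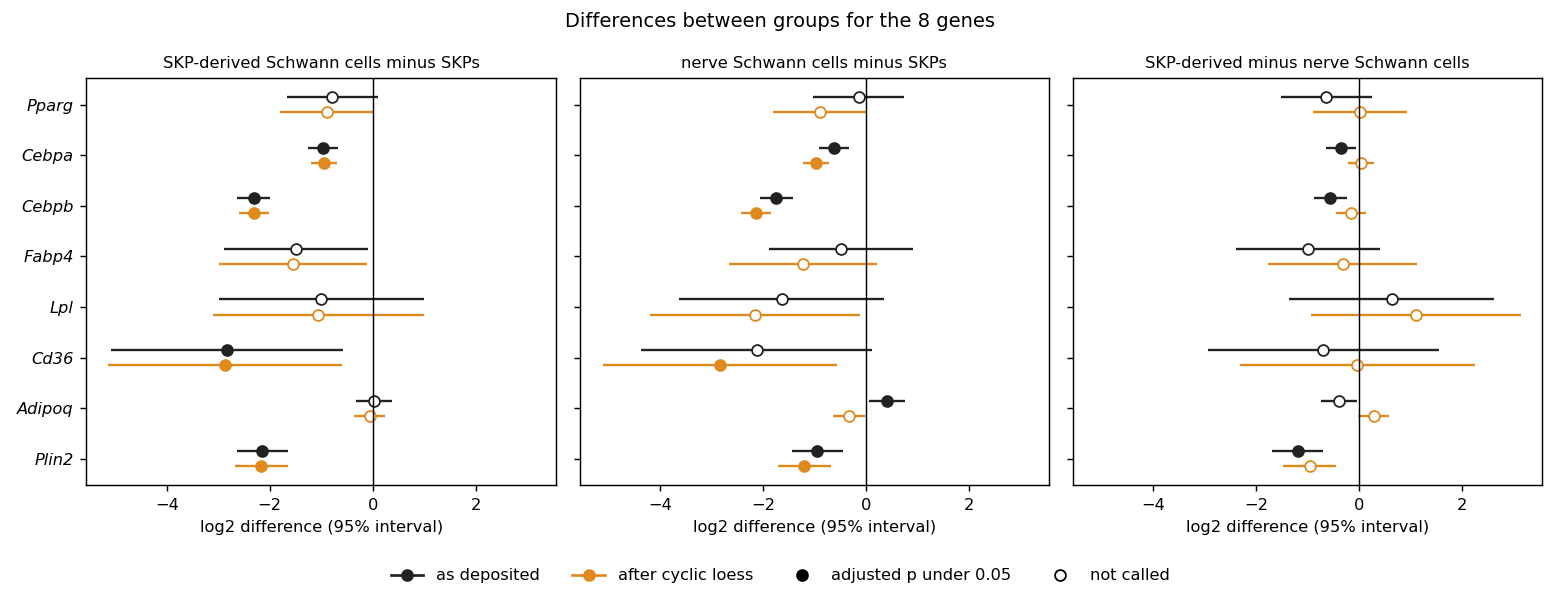
Log2 difference between groups (horizontal axis, with 95% interval) for the 8 genes in the 3 comparisons, as deposited (black) and after cyclic loess (orange); filled points have an adjusted p under 0.05. Cebpa, Cebpb and Plin2 lie left of 0 in both comparisons with SKPs, with short intervals, and the interval of Cd36 runs from -5.08 to -0.58 for SKP-derived Schwann cells.

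Cebpb encodes C/EBP-beta, an early factor of the relay that also drives inflammatory and stress responses. It had log2 levels of 6.45, 6.17 and 6.46 in SKP-derived Schwann cells, 6.97, 6.79 and 7.01 in nerve Schwann cells and 8.79, 8.71 and 8.50 in SKPs. Every SKP array was above every Schwann cell array. The level was 4.96-fold lower in SKP-derived Schwann cells (log2 difference -2.31 ± 0.14, SE; limma adjusted p = 5.6e-06) and 3.35-fold lower in nerve Schwann cells (-1.74 ± 0.14; adjusted p = 2.1e-05). After cyclic loess the nerve difference was -2.14. In bulk cultures such as these, fewer cells of a type and less RNA per cell cannot be told apart.

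Cebpa encodes C/EBP-alpha, which sustains the differentiated state of fat cells and also acts in liver and myeloid cells. Its levels were 7.0, 6.96 and 7.25 in SKP-derived Schwann cells, 7.41, 7.48 and 7.39 in nerve Schwann cells and 8.15, 7.93 and 8.05 in SKPs. SKPs were again highest, with a smaller gap than for Cebpb. Cebpa fell by 0.97 ± 0.13 (SE) in SKP-derived Schwann cells (adjusted p = 0.00035) and by 0.61 ± 0.13 in nerve Schwann cells (adjusted p = 0.0026) relative to SKPs. After cyclic loess the differences were -0.95 and -0.98, so that both Schwann cell groups lay about equally far below SKPs.

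Pparg encodes the nuclear receptor at the centre of fat cell identity. It had 5.0, 4.88 and 4.75 in SKP-derived Schwann cells, 5.47, 5.54 and 5.53 in nerve Schwann cells and 6.80, 4.99 and 5.18 in SKPs. On the deposited scale SKP array 1 alone was high, and the other 2 SKP arrays lay near SKP-derived and below nerve Schwann cells. The difference was -0.78 ± 0.39 for SKP-derived Schwann cells (adjusted p = 0.14) and -0.14 ± 0.39 for nerve Schwann cells (adjusted p = 0.767), and neither passed the test. After cyclic loess the differences were -0.88 for SKP-derived (adjusted p = 0.11) and -0.90 for nerve Schwann cells (adjusted p = 0.095). Without SKP array 1, the deposited difference was -0.21 for SKP-derived Schwann cells (adjusted p = 0.28; -0.30 and 0.11 after cyclic loess). Nerve Schwann cells were then higher by 0.43 (adjusted p = 0.028) on the deposited values, and the difference was -0.32 (adjusted p = 0.088) after cyclic loess.

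Plin2 encodes perilipin 2, which coats lipid droplets and is itself a PPAR target. Its levels were 8.02, 7.88 and 8.25 in SKP-derived Schwann cells, 9.24, 9.23 and 9.27 in nerve Schwann cells and 10.48, 10.46 and 9.64 in SKPs. The 3 groups did not overlap, with nerve Schwann cells in between, and SKP array 3 was the lowest of its group. The level was 4.42-fold lower in SKP-derived Schwann cells (log2 difference -2.14 ± 0.22; adjusted p = 8.1e-05) and 1.93-fold lower in nerve Schwann cells (-0.95 ± 0.22; adjusted p = 0.0044) than in SKPs. After cyclic loess the nerve difference was -1.20, and -1.51 without SKP array 3 as well.

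Cd36 encodes the fatty acid translocase, which is also a scavenger receptor of macrophages. Its main feature read 3.54, 4.30 and 3.16 in SKP-derived Schwann cells, 4.40, 4.52 and 4.20 in nerve Schwann cells and 8.40, 7.52 and 3.57 in SKPs. SKP arrays 1 and 2 stood more than 3 log2 units above SKP array 3, which lay among the Schwann cell arrays. The difference was -2.83 ± 1.00 for SKP-derived Schwann cells (adjusted p = 0.047) and -2.13 ± 1.00 for nerve Schwann cells (adjusted p = 0.088; -2.83 and 0.044 after cyclic loess). The call for SKP-derived Schwann cells was lost on leaving out SKP array 1 (-1.87, adjusted p = 0.15), SKP array 2 (-2.31, adjusted p = 0.14) or any of the 6 Schwann cell arrays. Without SKP array 3 the difference was -4.29 (adjusted p = 3.2e-05) for SKP-derived and -3.59 (adjusted p = 7.9e-05) for nerve Schwann cells. Without SKP array 1 it was -1.17 (adjusted p = 0.3) for nerve Schwann cells. The other feature of Cd36 had 2.27, 3.25 and 2.15 in SKP-derived Schwann cells, 3.24, 3.22 and 2.80 in nerve Schwann cells and 5.64, 4.89 and 2.75 in SKPs, with the same order of SKP arrays.

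Lpl encodes lipoprotein lipase, which fat cells, muscle and macrophages secrete to free fatty acids from triglyceride-rich lipoproteins. It had 5.58, 6.96 and 7.45 in SKP-derived Schwann cells, 6.18, 6.53 and 5.39 in nerve Schwann cells and 8.92, 8.78 and 5.31 in SKPs. The spread within groups was wide, and the lowest array was SKP array 3 as deposited (5.31, next to 5.39 in nerve array 3) and nerve array 3 after cyclic loess (5.08, next to 5.54 in SKP array 3). Neither Schwann cell group passed the test against SKPs (-1.0 ± 0.89, adjusted p = 0.39 for SKP-derived; -1.63 ± 0.89, adjusted p = 0.13 for nerve Schwann cells). After cyclic loess the nerve difference was -2.15 (adjusted p = 0.077). The difference for SKP-derived Schwann cells was -0.38 without SKP array 1 (adjusted p = 0.78), -0.45 without SKP array 2 (0.74) and -0.46 without SKP-derived array 1 (0.75). For nerve Schwann cells it was -1.01 without SKP array 1 (adjusted p = 0.37) and -1.08 without SKP array 2 (0.36). Without SKP array 3, Lpl was lower in SKP-derived (-2.18, adjusted p = 0.0088) and in nerve Schwann cells (-2.81, adjusted p = 0.0015).

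Fabp4 encodes the fatty acid binding protein of fat cells, also abundant in macrophages and capillary endothelium. Its levels were 4.17, 4.27 and 3.98 in SKP-derived Schwann cells, 5.11, 5.24 and 5.04 in nerve Schwann cells and 7.49, 4.70 and 4.68 in SKPs. As for Pparg, on the deposited scale SKP array 1 alone was high, and nerve Schwann cells were above the other 2 SKP arrays. The difference was -1.49 ± 0.62 for SKP-derived (adjusted p = 0.083) and -0.49 ± 0.62 for nerve Schwann cells (adjusted p = 0.51). After cyclic loess the nerve difference was -1.22 (adjusted p = 0.14). Without SKP array 2 or 3 the SKP-derived difference passed the test (-1.95, adjusted p = 0.048, and -1.96, adjusted p = 0.034), and the nerve difference was -0.95 and -0.97. Without SKP array 1, SKP-derived Schwann cells were lower by a smaller step that passed the test (-0.55, adjusted p = 0.018; -0.60 and 0.0051 after cyclic loess). Nerve Schwann cells were then higher by 0.44 as deposited (adjusted p = 0.027), while the difference was -0.28 (adjusted p = 0.089) after cyclic loess.

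Adipoq encodes adiponectin, the hormone that marks mature fat cells. It read 5.11, 5.12 and 4.96 in SKP-derived Schwann cells, 5.48, 5.56 and 5.32 in nerve Schwann cells and 5.08, 5.27 and 4.76 in SKPs. SKP-derived Schwann cells overlapped with SKPs, with a difference of 0.03 and a 95% interval of -0.32 to 0.38 (adjusted p = 0.9). Nerve Schwann cells were higher by 0.42 ± 0.16 as deposited (adjusted p = 0.039), less than the shift of the median gene, and after cyclic loess the difference was -0.34 (adjusted p = 0.069). Each of 5 arrays, when left out, ended the deposited call: SKP-derived array 1, nerve arrays 1 and 2, and SKP arrays 1 and 3 (adjusted p from 0.053 to 0.13). The 8 markers of mature fat cells (Plin1, Adipoq, Cidec, Lep, Cfd, Retn, Lipe and Pck1) averaged 6.02 to 6.22 in SKP-derived Schwann cell arrays, 6.07 to 6.20 in nerve Schwann cell arrays and 6.09 to 6.23 in SKP arrays after cyclic loess. Of these 8, only Cfd (adipsin) was called after cyclic loess, higher in SKP-derived Schwann cells, and without SKP array 1 it was not. After cyclic loess without SKP array 3, 1 marker was higher and 1 lower in SKP-derived, and 1 higher and 2 lower in nerve Schwann cells.

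Macrophage markers moved with part of this pattern. Over 11 markers, the mean level after cyclic loess was 5.56 to 5.74 in SKP-derived Schwann cell arrays, 5.65 to 5.73 in nerve Schwann cell arrays, and 8.01, 6.41 and 5.94 in SKP arrays 1, 2 and 3. Mrc1, the mannose receptor, had a deposited level of 9.63 in SKP array 1, against 5.81 and 4.87 in SKP arrays 2 and 3, and Ptprc (CD45) had 7.66, against 4.64 and 4.13. SKP array 1, the array high for Pparg and Fabp4, was thus also the highest for these markers. Cd68 had 9.76, 8.39 and 6.47 in SKP arrays 1 to 3, the order also seen for Cd36. Of the 11 markers, Aif1 and Cd14 were lower in SKP-derived Schwann cells, and in nerve Schwann cells Cd14 was lower and Cd163 higher (not called after cyclic loess). Without SKP array 1, SKP-derived Schwann cells had 1 marker higher and 1 lower, and nerve Schwann cells had 7 higher as deposited and 0 after cyclic loess. Without SKP array 3, 6 were lower in SKP-derived and 2 in nerve Schwann cells (6 and 6 after cyclic loess). RMA values have no zero, so no marker could be called absent, and the part of these cells in the levels of the 8 genes was not tested. Cebpa, Cebpb and Plin2 were also called lower in both Schwann cell groups without SKP array 1. Among the markers, Cd14 too was high in all 3 SKP arrays (10.77, 10.25 and 9.18 as deposited). It was at most 6.44 in a Schwann cell array.

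**Figure D3:**
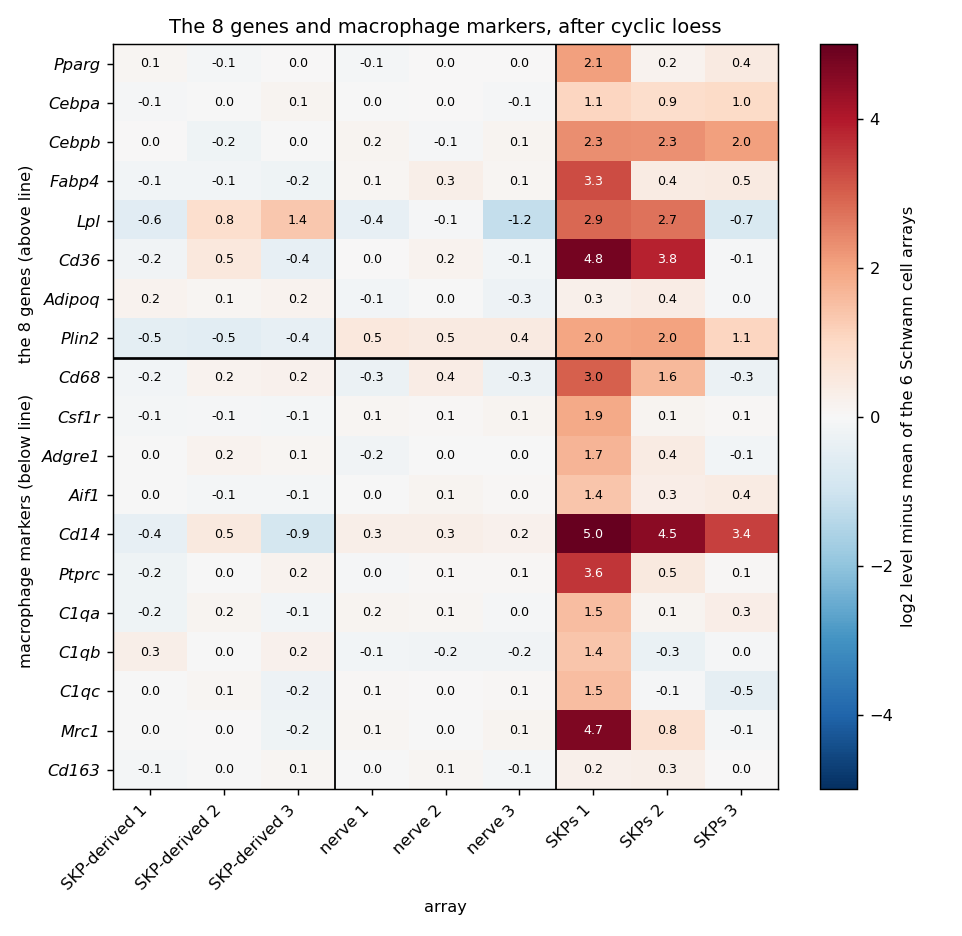
Log2 level after cyclic loess minus the mean of the 6 Schwann cell arrays (colour and printed value) for the 8 genes and 11 macrophage markers in each array. Pparg (7.13 in SKP array 1, 5.25 and 5.53 in SKP arrays 2 and 3) and Fabp4 share the column of SKP array 1 with Mrc1 and Ptprc, while Cebpa and Cebpb are raised in all 3 SKP arrays.

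Markers of dermal fibroblasts also varied within groups. The mean of 7 such markers (Pdgfra, Prrx1, Col1a1, Col1a2, Dcn, Thy1 and Lum) was 8.68, 10.93 and 9.80 in SKP-derived Schwann cell arrays 1 to 3, 9.54, 10.56 and 8.86 in nerve Schwann cell arrays and 12.49, 12.44 and 11.02 in SKP arrays. Of the 7, 4 were lower in SKP-derived and 4 in nerve Schwann cells. The lowest array on this mean was also lowest for Lpl within each group, and the part of fibroblasts in the result was not tested. Over 8 endothelial markers the mean after cyclic loess was 5.66 to 5.87 in SKP-derived Schwann cell arrays, 5.86 to 5.96 in nerve Schwann cell arrays and 5.55 to 5.72 in SKP arrays, and SKP array 1 did not stand apart.

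Between the Schwann cell groups, the result depended on the scale. As deposited, 3 of the 8 genes (Cebpa, Cebpb and Plin2) were called lower in SKP-derived than in nerve Schwann cells and 0 higher, beside 43.7% of all genes called (42.3% lower, 1.33% higher). After cyclic loess 0 of the 8 were called by limma and 1 had an unadjusted p under 0.05, beside 1.33% of all genes called (0.731% higher, 0.600% lower). Groups did not overlap for 6 of the 8 genes as deposited, beside 62.3% of all genes, and for 3 of the 8 after cyclic loess, beside 35.1%. Plin2 had the largest deposited difference of the 8, while after cyclic loess that of Lpl was larger (1.10, adjusted p = 0.53). The Plin2 difference was -1.20 ± 0.22 as deposited (adjusted p = 0.0042) and -0.96 ± 0.23 after cyclic loess (adjusted p = 0.075), with no overlap of the groups on either scale. Cebpb differed by -0.57 as deposited (adjusted p = 0.013) and by -0.16 after cyclic loess (adjusted p = 0.52), and the deposited call was lost without nerve array 3 (adjusted p = 0.052). For Cebpa, the deposited difference of -0.36 (adjusted p = 0.0499) was 0.03 after cyclic loess, with a 95% interval of -0.22 to 0.28, and the deposited call was lost on leaving out SKP-derived array 1 or 2, any nerve array or SKP array 2 (adjusted p = 0.051 to 0.15). With SKP array 1 left out, Pparg (-0.64, adjusted p = 0.0064) and Fabp4 (-0.99, adjusted p = 0.003) were called lower as deposited and not called after cyclic loess (0.02 for Pparg, -0.33 for Fabp4). The after-loess intervals were wider for Pparg (-0.90 to 0.93), Cd36 (-2.31 to 2.24) and Lpl (-0.94 to 3.14).

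Other members of the receptor and C/EBP families did not all follow Cebpa and Cebpb. The lists that follow were drawn from general knowledge, with earlier results of these data known. They overlap with the 8 genes where a family includes them, and are described by counts against the background shares given above. Log2 differences for these genes are from SKPs, in SKP-derived and in nerve Schwann cells. Of 10 genes for PPAR, RXR and LXR receptors and their coactivators, 1 was higher and 1 lower in SKP-derived Schwann cells, and nerve Schwann cells had 3 higher and 1 lower (1 higher and 2 lower in either group after cyclic loess). Rxrg, a heterodimer partner of PPARs, was higher by 3.68 in SKP-derived (adjusted p = 1.4e-05) and by 4.48 in nerve Schwann cells (adjusted p = 5.3e-06). Nr1h3, the oxysterol receptor LXR-alpha, was lower (-1.57 in SKP-derived, -0.79 in nerve). Ppard and Ppargc1a were called higher in nerve Schwann cells as deposited and not after cyclic loess, and neither was called in SKP-derived Schwann cells. Among the 6 C/EBP family genes, Cebpa, Cebpb and Cebpg were lower in both Schwann cell groups. Cebpd, which acts beside Cebpb early in the relay, was instead higher by 0.70 in SKP-derived and by 1.21 in nerve Schwann cells, and the call for SKP-derived Schwann cells was lost without SKP array 1 or without SKP array 3.

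Of 19 measured regulators known to favour adipogenesis, 3 were higher and 11 lower in SKP-derived Schwann cells, and 4 higher and 6 lower in nerve Schwann cells (after cyclic loess, 3 higher and 12 lower in SKP-derived, 3 higher and 10 lower in nerve). Bmp2, a ligand that can commit mesenchymal cells to the fat lineage, was lower (-5.13 in SKP-derived, -4.66 in nerve). Ebf1 (-2.74 in SKP-derived, -2.72 in nerve) and Klf4 (-2.06 in SKP-derived, -3.09 in nerve) were lower as well. The higher genes included Egr2 (2.96 in SKP-derived, 1.98 in nerve), known in Schwann cells as the master factor of myelination, and the immediate early gene Fos (3.39 in SKP-derived, 3.12 in nerve). Of 18 inhibitors of adipogenesis, 3 were higher and 3 lower in SKP-derived Schwann cells, and nerve Schwann cells had 9 higher and 3 lower (5 higher and 4 lower after cyclic loess). Without SKP array 1 the count higher in SKP-derived Schwann cells was 1. Wnt5a (-3.71 in SKP-derived, -3.80 in nerve) and Zfp521 (-2.52 in SKP-derived, -2.23 in nerve) were lower, while Nr2f2 was higher (1.86 in SKP-derived, 2.83 in nerve).

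Fatty acid binding proteins moved to both sides. Of 12 measured, 2 were higher and 4 lower in SKP-derived Schwann cells, and nerve Schwann cells had 6 higher and 3 lower (3 higher and 4 lower in both groups after cyclic loess). Pmp2, the myelin fatty acid binding protein, had 13.03, 12.98 and 12.89 in SKP-derived Schwann cells, 12.58, 11.78 and 11.92 in nerve Schwann cells and 4.05, 4.34 and 3.96 in SKPs. Its difference, 8.85 for SKP-derived and 7.98 for nerve Schwann cells, was opposite in sign to that of Fabp4. Fabp5 was higher by 2.19 in SKP-derived and 2.21 in nerve Schwann cells, and Fabp3, the heart type, was lower (-1.49 in SKP-derived, -0.96 in nerve). Crabp1 (-2.61 in SKP-derived, -4.04 in nerve) and Crabp2 (-2.52 in SKP-derived, -2.49 in nerve), which bind retinoic acid, were lower.

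Among 10 droplet coat genes, as deposited, Plin2 was the only 1 called lower in either Schwann cell group, and Fitm2 the only 1 called higher in SKP-derived Schwann cells (0.78). In nerve Schwann cells 7 were called higher as deposited, and after cyclic loess 3 were higher and 2 lower (1 higher and 1 lower without SKP array 1). Without SKP array 3, 2 were called lower in SKP-derived and 2 in nerve Schwann cells. Of 9 lipolysis genes, 3 were higher and 2 lower in SKP-derived, and 5 higher and 2 lower in nerve Schwann cells (2 higher and 2 lower after cyclic loess). Pnpla2, the first lipase of droplet breakdown, was higher by 0.91 in SKP-derived and 1.82 in nerve Schwann cells, while its coactivator Abhd5 (-1.77 in SKP-derived, -1.61 in nerve) and the lysosomal lipase Lipa (-1.78 in SKP-derived, -1.47 in nerve) were lower. Of 11 genes that handle lipoprotein lipase or take up lipoproteins, 2 were higher and 3 lower in SKP-derived, and 7 higher and 3 lower in nerve Schwann cells (4 higher and 3 lower after cyclic loess, with 2 higher without SKP array 1). Angptl4, an inhibitor of lipoprotein lipase, was higher by 3.22 in SKP-derived and 4.39 in nerve Schwann cells and Sort1 by 2.46 in SKP-derived and 2.25 in nerve Schwann cells, whereas Apoe (-2.95 in SKP-derived, -2.44 in nerve) and Lrp1 (-2.26 in SKP-derived, -2.06 in nerve) were lower.

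Of 15 genes of fatty acid uptake and activation, 1 was higher and 3 lower in SKP-derived, and 5 higher and 2 lower in nerve Schwann cells (2 higher and 4 lower after cyclic loess). In nerve Schwann cells the count was 3 higher without SKP array 1 and 4 lower without SKP array 3. Acsl5, an acyl-CoA synthetase, was lower (-3.31 in SKP-derived, -3.24 in nerve), as was Cav2 (-2.48 in SKP-derived, -2.24 in nerve). In triglyceride synthesis, enzymes of the same first step went opposite ways: Gpat3 was lower (-2.76 in SKP-derived, -2.77 in nerve) and Gpam higher (2.14 in SKP-derived, 2.18 in nerve). Over its 15 genes, 3 were higher and 4 lower in SKP-derived, and 7 higher and 3 lower in nerve Schwann cells (3 higher and 4 lower after cyclic loess). The plot of listed genes sets these differences side by side.

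**Figure D4:**
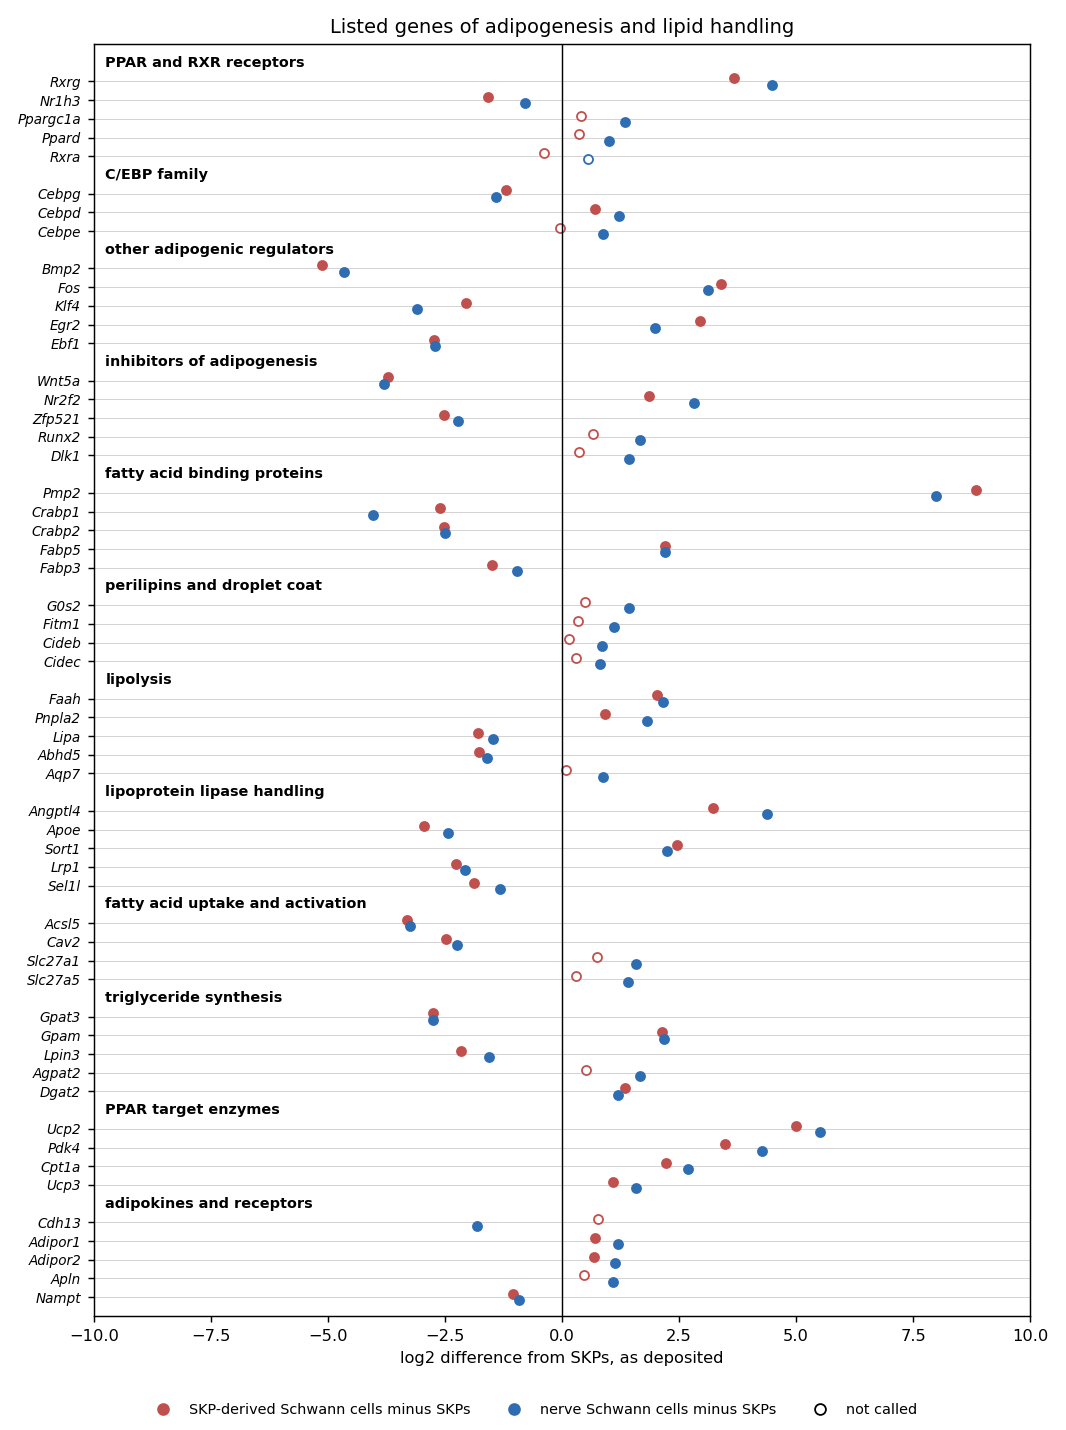
Log2 difference from SKPs as deposited (horizontal axis) for listed genes of adipogenesis and lipid handling, up to 5 a list, for SKP-derived (red) and nerve (blue) Schwann cells; open points were not called. Pmp2 lies farthest right (8.85 in SKP-derived, 7.98 in nerve) and Bmp2 farthest left (-5.13 in SKP-derived, -4.66 in nerve).

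Listed genes of fatty acid oxidation and other PPAR targets, which include none of the 8 genes, were mostly on the side opposite to Plin2. Of 13 measured, 8 were higher and 1 (Acadm) lower in SKP-derived Schwann cells, with a median of 0.93 against -0.01 over all genes (7 higher and 1 lower after cyclic loess). In nerve Schwann cells 10 were higher and 0 lower, with a median of 1.22 against 0.46, and after cyclic loess 8 were higher and 1 lower, with a median of 0.73. The direction is that of this list and not of PPAR targets as a class. In SKP-derived Schwann cells Plin2 (-2.14), Cd36 (-2.83), Fabp4 (-1.49) and Lpl (-1.0) lay below SKPs, with Plin2 and Cd36 called. Ucp2, a mitochondrial carrier, was higher by 4.99 in SKP-derived and 5.52 in nerve Schwann cells. Pdk4, which restrains glucose oxidation, was higher by 3.48 in SKP-derived and 4.26 in nerve Schwann cells. For Cpt1a, the entry step of mitochondrial fatty acid oxidation, the difference was 2.21 in SKP-derived and 2.68 in nerve Schwann cells. Of 12 adipokine and adipokine receptor genes, 4 were higher and 1 lower in SKP-derived, and 10 higher and 2 lower in nerve Schwann cells (3 higher and 2 lower after cyclic loess). Without SKP array 1 the count higher in SKP-derived Schwann cells was 2. The receptors Adipor1 (0.71 in SKP-derived, 1.19 in nerve) and Adipor2 (0.69 in SKP-derived, 1.13 in nerve) were higher in both. Cdh13, the adiponectin-binding T-cadherin, was the only listed gene called between the Schwann cell groups after cyclic loess: it was 2.59 higher in SKP-derived than in nerve Schwann cells as deposited, and 2.75 after cyclic loess (adjusted p = 0.039). After cyclic loess without SKP array 1 no listed gene was called between them. After cyclic loess without SKP array 3, several lists held 1 called gene each. They were other adipogenic regulators, fatty acid binding proteins, droplet coat genes, adipokines and their receptors, dermal fibroblast markers and endothelial markers.

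The genes most like each of the 8 in level were taken by Pearson's r over the 9 arrays, for the 6 genes whose SD over the arrays was at least 0.5. The 9 arrays fall into 3 groups, so r follows the group means and any array that stands apart, and it is given as a description. Pparg was most like Tm6sf1 (r = 0.990), Fabp4 (0.986) and Lypd8l1 (0.978), and Fabp4 was most like Pla2g2d (0.989), Pparg and Lypd8l1 (0.984). Tm6sf1 shared the single high SKP array, with 7.01 in SKP array 1 and 4.91 and 5.44 in SKP arrays 2 and 3. Cd36 was most like Dpep1 (0.995), Nt5e (0.994) and Ccl7 (0.991), and Lpl like Srpx (0.954), Acat2 (0.934) and Dpt (0.933), all of them higher in SKP arrays 1 and 2 than in SKP array 3. Cebpb was most like Psmb8, Tchp and Pacsin3 (0.994 each). For Plin2 the 3 were Dyrk3 (0.992), Or8b43b (0.990) and Kcnj12 (0.990), and r after cyclic loess was 0.928, 0.908 and 0.970. The deposited level of Or8b43b was low in all 9 arrays (2.22 to 3.15), where array medians were 6.20 to 6.87.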

How the data were processed

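The authors deposited log2 values of 29214 features in 9 columns, 1 per array, and all 9 were used. The submitters' processing notes name RMA and Affymetrix Expression Console. Versions, a genome build and whether the arrays were normalized together are not stated in the sources used here. Detection calls and signals of single probes were not used, and precision is limited by the number of arrays. The platform annotation gives 1 gene symbol for 15310 features, several for 323 and none for 13581. Features with 1 symbol were kept, and the feature with the highest mean stood for a gene, which left 14506 genes. Of these, 14480 matched the RefSeq gene table (GRCr8) by Entrez identifier, and 0 symbols differed. No 2 arrays held identical values.

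A linear model of group means was fitted to all 9 arrays with limma 3.58.1 in R 4.3.3 (lmFit and eBayes). Benjamini-Hochberg adjustment ran over all 14506 genes of a comparison, and an adjusted p under 0.05 made a call. Every adjusted p for a gene comes from limma. Intervals are 95% intervals of this fit, and the script was tested on simulated data. The series' design calls the samples independent. The genes, the lists and the tests were chosen with earlier results of these data known. Named genes are the 8 genes, up to 5 called genes of each list with the largest difference from SKPs, cell type markers used as checks, and for each of the 8 with an SD of at least 0.5 the 3 genes most like it. Other listed genes named in the text were chosen after their values were seen. Alternatives were other scalings, a level filter, other features, fits and thresholds, a replicate block and leaving out arrays. Cyclic loess together with a left-out SKP array, and list counts without SKP array 1 or 3, were added after seeing the data.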

Additional observations from a re-analysis of the deposited data

How the results depend on the processing

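Of 441 values of single genes under alternatives, 371 kept their direction and their side of the threshold, 38 lost the call, 20 gained one and 12 called or newly called values changed sign. In SKP-derived minus nerve Schwann cells, where 3 of the 8 genes were called, the count was 0 under median centring, cyclic loess and quantile normalization, 1 at an adjusted p under 0.01, 1 among the 3 genes at or above the median level, 6 in a fit of only the 2 groups, and, with cyclic loess, 0 without SKP array 1 and 1 without SKP array 3. Of all genes, 4.94% were called in that comparison under median centring, 1.33% under cyclic loess and 1.65% under quantile normalization, beside 43.7% as deposited. No such share was taken for the other fits, those with left-out arrays or a replicate block included. Their counts therefore cannot be set against a background. Leaving out arrays moved the counts of called genes between 3 and 6 for SKP-derived Schwann cells minus SKPs, 3 and 6 for nerve Schwann cells minus SKPs, and 0 and 5 for SKP-derived minus nerve Schwann cells. On the deposited values the last count was 1 without nerve Schwann cell array 3 and 5 without SKP array 1. In nerve Schwann cells minus SKPs, leaving out SKP array 1 turned Pparg to 0.43 and Fabp4 to 0.44, against -0.48 for Pparg without SKP array 2 and -0.97 for Fabp4 without SKP array 3, the lowest values on leaving out an array from the deposited values. In the same comparison Adipoq was -0.19 under median centring, -0.34 under cyclic loess, -0.32 under quantile normalization, and, with cyclic loess, -0.30 without SKP array 1 and -0.46 without SKP array 3 (adjusted p = 0.014). Cebpa in SKP-derived minus nerve Schwann cells was 0.11 under median centring, 0.028 under cyclic loess (also without SKP array 1 or 3) and 0.023 under quantile normalization. The Cd36 call in SKP-derived Schwann cells minus SKPs was lost under quantile normalization (adjusted p = 0.052), in a fit of 2 groups (0.09) and with trended and robust variances (0.057). The cause of these changes was not tested, and some of the fits also held fewer samples or genes. For deviations from the group means, r was -0.12 to 0.29 between same-numbered arrays (3 of 9 pairs over 0.1). Between arrays of other numbers it was -0.27 to 0.18. With 3 arrays in a group, these values cannot decide whether the numbers pair the samples. With the replicate block the counts were 4, 4 and 3; in SKP-derived minus nerve Schwann cells Cebpa then missed the threshold (adjusted p = 0.073) and Adipoq passed it (0.046).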

Other observations

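Array 3 of the SKPs also stood apart for genes of these pathways outside the 8, which were picked after their values were seen and are given without a test. Ddit3, which encodes the stress-induced C/EBP family member CHOP, had 7.72, 7.99 and 7.64 in SKP-derived Schwann cells, 8.13, 8.01 and 8.21 in nerve Schwann cells and 8.50, 8.45 and 11.75 in SKPs. Vldlr, a lipoprotein receptor, had 9.61, 9.24 and 9.45 in SKP-derived Schwann cells, 9.95, 10.01 and 10.28 in nerve Schwann cells and 7.58, 7.76 and 9.94 in SKPs. Sel1l, which helps lipoprotein lipase leave the endoplasmic reticulum, had 9.83, 9.82 and 11.57 in SKP arrays 1 to 3. Crabp1 had 13.52, 13.34 and 10.49 and Cav1 had 12.64, 12.37 and 9.83 in the same arrays, low in array 3 as Lpl and Cd36 were.

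Ebf2, a factor of brown fat precursors, was read at 3.98, 4.47 and 4.28 in SKP-derived Schwann cells, 6.35, 7.91 and 5.71 in nerve Schwann cells and 4.85, 4.78 and 4.40 in SKPs. Dlk1 (Pref-1), a marker of preadipocytes, had 7.06, 7.07 and 6.85 in SKP-derived Schwann cells, 7.77, 8.90 and 7.54 in nerve Schwann cells and 6.74, 6.83 and 6.32 in SKPs. Nerve Schwann cell array 2 had the highest level of both genes, and it was also the highest of its group on the dermal fibroblast marker mean (10.56, against 9.54 and 8.86). Across groups this did not hold. SKP-derived array 2 (10.93) and SKP arrays 1 to 3 (12.49, 12.44 and 11.02) had higher means and lower levels of both genes. The part of fibroblasts in these levels was not tested.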
